A study of Mus musculus with 28 samples.

Results

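The kynurenine pathway, which carries tryptophan to NAD+, was followed through 9 genes in the liver and kidney of mice gavaged with nicotinamide mononucleotide (NMN) or water. The genes were listed by name for their place in the pathway, and all 9 were found among the 54446 genes counted. They are Tdo2, Ido2, Afmid, Kmo, Kynu, Haao and Qprt, together with the side-branch genes Acmsd and Aadat. All animals were male C57BL/6 mice (C57BL6J in the study's methods), 8 weeks old, gavaged for 7 days. In the first schedule the NMN mice received 1340 mg/kg/d in 1 daily gavage, and their controls received water on the same schedule (4 NMN and 4 water libraries per organ). In the second schedule the NMN mice received 2680 mg/kg/d in 2 daily gavages, with their own water controls (3 NMN and 3 water libraries per organ). Dose, gavage number and the set of libraries changed together between the schedules and cannot be told apart. Poly(A)-selected RNA of whole tissue was sequenced, giving 28 libraries. In such bulk samples, fewer cells of a type and less RNA per cell cannot be told apart.

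In mammals the liver is the main site at which dietary tryptophan is burnt along this route. Tdo2 (tryptophan 2,3-dioxygenase), or its relatives Ido1 and Ido2, open the indole ring, and Afmid (kynurenine formamidase) releases kynurenine. Kmo hydroxylates kynurenine, Kynu cleaves the product to 3-hydroxyanthranilate, and Haao opens that ring to give an unstable semialdehyde. Here the route forks. The semialdehyde closes by itself to quinolinate, which Qprt (quinolinate phosphoribosyltransferase) turns into the NAD+ precursor nicotinic acid mononucleotide, whereas Acmsd (aminocarboxymuconate semialdehyde decarboxylase) removes the semialdehyde towards full oxidation and so away from NAD+. Aadat (kynurenine aminotransferase II) leaves the route earlier, by making kynurenic acid from kynurenine. NMN enters NAD+ synthesis downstream of all of these enzymes.

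Between 12688324 and 33872983 reads were counted on genes per library. Some libraries or groups stood apart before any gene was considered. In the liver, NMN replicate 4 of the 1340 mg/kg/d schedule had 12.8% of its reads outside annotated genes, against 4.91 to 7.44% in the other 7 liver libraries of that schedule. The kidney libraries of NMN mice were all smaller than those of water mice at 1340 mg/kg/d (13174264 to 14006288 against 15354270 to 15696435 reads) and all larger at 2680 mg/kg/d (22922994 to 33872983 against 16358886 to 18983689). Mitochondrial genes took 3.89 to 5.77% of the counts in the liver and 8.92 to 10.6% in the kidney in the first schedule, and 5.74 to 9.24% and 19.8 to 21.6% in the second. The tissues matched their labels. Hepatocyte markers (Alb, Apoa1, Apoa2, Cps1, Ttr and Serpina1c) summed to between 89851 and 157234 CPM (counts per 1000000 counted reads) in the liver and to between 79.0 and 254.6 CPM in the kidney. Proximal tubule markers (Slc34a1, Lrp2, Slc22a6, Slc5a2, Slc5a12 and Kap) summed to at least 20845 CPM in every kidney library and to at most 56.6 CPM in every liver library.

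In water mice the pathway was divided between the organs: Tdo2 and Ido2, which open the ring, were most abundant in the liver, and both side branches in the kidney. Levels between genes and organs are compared as TPM (counts divided by exon length and scaled to a sum of 1000000), and the locations are those of GENCODE M21 on GRCm38. Tdo2 (ENSMUSG00000028011.16, chr3:81957090-81976202, minus strand) was the most abundant of the 9 in the liver, at 744.9 ± 92.0 TPM (SD, n = 4) in the 1340 mg/kg/d schedule and 799.5 ± 106.7 TPM (SD, n = 3) in the 2680 mg/kg/d schedule. In the kidney it was counted only 26 to 42 times per water library in the first schedule and 2 to 12 times in the second. Its liver level was thus 520.2-fold and 3738-fold that of the kidney, the latter resting on so few counts that 1 library moves it by over 1.5 times (log2 12.33 to 13.37 by edgeR with 1 library left out, the highest without kidney water replicate 1). Hepatocyte markers were counted in the kidney too. In the kidney libraries of both treatments, Alb stood at 71.7 to 125.0 CPM in the first schedule and at 8.55 to 16.5 CPM in the second, where Tdo2 stood at 1.24 to 3.26 and at 0.0872 to 0.632 CPM. The Alb count was 31.0 to 67.5 times the Tdo2 count in the kidneys of the first schedule and 39.0 to 71.3 times in its livers. In the second schedule it was 15.5 to 98 times in the kidneys, where Tdo2 was counted at most 12 times, and 45.8 to 95.01 times in the livers. Ttr, the most abundant of these markers in water kidneys, differed little between the schedules, with means of 97.5 and 92.2 CPM. The part of liver RNA in the kidney values of Tdo2 was not tested.

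Ido2 (ENSMUSG00000031549.16, chr8:24531892-24576333, minus strand) reached 57.5 ± 8.13 TPM in the liver and 8.59 ± 0.512 TPM in the kidney (SD, n = 4) at 1340 mg/kg/d. Its neighbour Ido1, the inducible enzyme of immune cells, was listed at 0 in every liver library and stayed under 0.5 normalised CPM in every kidney library. Afmid (ENSMUSG00000017718.15, chr11:117825924-117839908, plus strand) was low in both organs, at 27.0 ± 5.04 TPM in the liver and 31.6 ± 0.929 TPM in the kidney. Of its exon bases, 46.6% are shared with Gm20708 or Tk1. Gm20708 itself was counted at most 8 times in any library, and reads that fall on 2 genes are not counted, so the level of Afmid may be too low.

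In the middle of the route, Kmo (ENSMUSG00000039783.15, chr1:175620381-175662116, plus strand) stood at 134.6 ± 19.7 TPM in the liver and 81.2 ± 5.23 TPM in the kidney. Kynu (ENSMUSG00000026866.16, chr2:43555329-43682715, plus strand) differed more, at 53.8 ± 10.6 TPM in the liver against 5.24 ± 2.16 TPM in the kidney, a 10.3-fold difference. Haao (ENSMUSG00000000673.8, matched without its version, chr17:83831156-83847963, minus strand) was second in the liver, at 269.1 ± 9.86 TPM against 115.8 ± 12.7 TPM in the kidney. These values are means ± SD over the 4 water mice of the first schedule. All 3 genes were higher in the liver, Kynu by far the most.

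At the fork the 2 genes differed between the organs in opposite directions. Qprt (ENSMUSG00000030674.5, chr7:127107114-127122226, minus strand) stood at 169.6 ± 7.47 TPM in the liver and 84.7 ± 1.55 TPM in the kidney of those mice. Acmsd (ENSMUSG00000026348.7, chr1:127729413-127767978, plus strand) stood at 19.8 ± 5.51 TPM in the liver, the lowest of the 9, and at 120.8 ± 27.1 TPM in the kidney. In the second schedule Acmsd stood at 22.1 ± 3.04 TPM in the liver and 124.8 ± 9.07 TPM in the kidney (SD, n = 3). It was therefore 6.11-fold and 5.64-fold higher in the kidney. Only 94 of its exon bases are shared with another gene, the antisense RNA 2900009J06Rik, which was counted at most 10 times in any library. Aadat (ENSMUSG00000057228.6, chr8:60505932-60545677, plus strand) was the most abundant of the 9 in the kidney, at 281.9 ± 18.8 TPM against 105.4 ± 24.5 TPM in the liver, 2.67-fold higher in the first schedule and 2.68-fold in the second. Such folds depend on the scaling between organs. By the edgeR test below, Acmsd was 2.74-fold and 2.92-fold higher in the kidney, and Aadat 1.20-fold (not called) and 1.39-fold. Genes higher in the liver had larger folds by that test, such as Kynu at 22.9-fold in the first schedule.

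**Figure D1:**
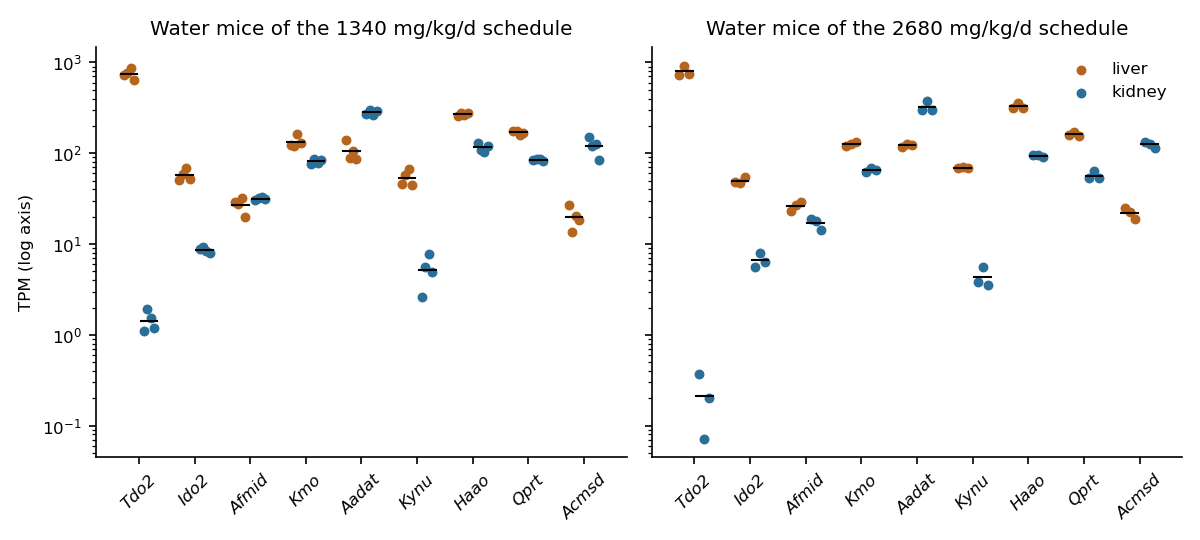
TPM on a log axis of the 9 genes in water mice, 1 point per library (4 or 3 per organ and schedule), with a line at the mean. Tdo2, Ido2 and Kynu sit far higher in the liver, whereas Acmsd and Aadat sit higher in the kidney in both schedules.

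The order of the liver levels at 1340 mg/kg/d was Tdo2, Haao, Qprt, Kmo, Aadat, Ido2, Kynu, Afmid and Acmsd. The ranges of Qprt and Kmo, Kmo and Aadat, Ido2 and Kynu, and Afmid and Acmsd overlapped between neighbours. In the kidney the order was Aadat, Acmsd, Haao, Qprt, Kmo, Afmid, Ido2, Kynu and Tdo2, with overlap only between Acmsd and Haao and between Qprt and Kmo.

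Whether the organs differed was tested with edgeR's quasi-likelihood test over all genes, with Benjamini-Hochberg adjustment. At 1340 mg/kg/d, 66.9% of all 14599 genes tested passed an adjusted p of 0.05 (30.9% higher and 36.1% lower in the liver), and 8 of the 9 pathway genes did, 7 higher in the liver and Acmsd lower. At 2680 mg/kg/d, 70.5% of 14844 genes passed (31% higher and 39.5% lower), and all 9 pathway genes did, with Acmsd and Aadat lower in the liver. The median log2 difference of all genes was -0.10 and -0.17, and that of the pathway genes was 2.16 and 2.45. Acmsd was lower in the liver by a log2 value of -1.46 (SE 0.22, adjusted p = 6.2e-05) and -1.55 (SE 0.14, adjusted p = 1.9e-06). Tdo2 was higher by 10.18 (SE 0.19) and 12.73 (SE 0.31). Aadat was at -0.26 (SE 0.15, adjusted p = 0.149) at 1340 mg/kg/d and at -0.48 (SE 0.11, adjusted p = 0.0030) at 2680 mg/kg/d. These estimates depend on the scaling between organs: with library totals in place of TMM the median of all genes stood at -1.05 and -1.10, Acmsd at -2.40 and -2.48, Aadat at -1.21 (adjusted p = 1.1e-05, so called) at 1340 mg/kg/d, and Afmid, at 0.92 (SE 0.13, adjusted p = 4.1e-05) by TMM at 1340 mg/kg/d, at -0.024. The direction of Afmid between the organs was therefore not settled at that dose, and the other 8 kept theirs.

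**Figure D2:**
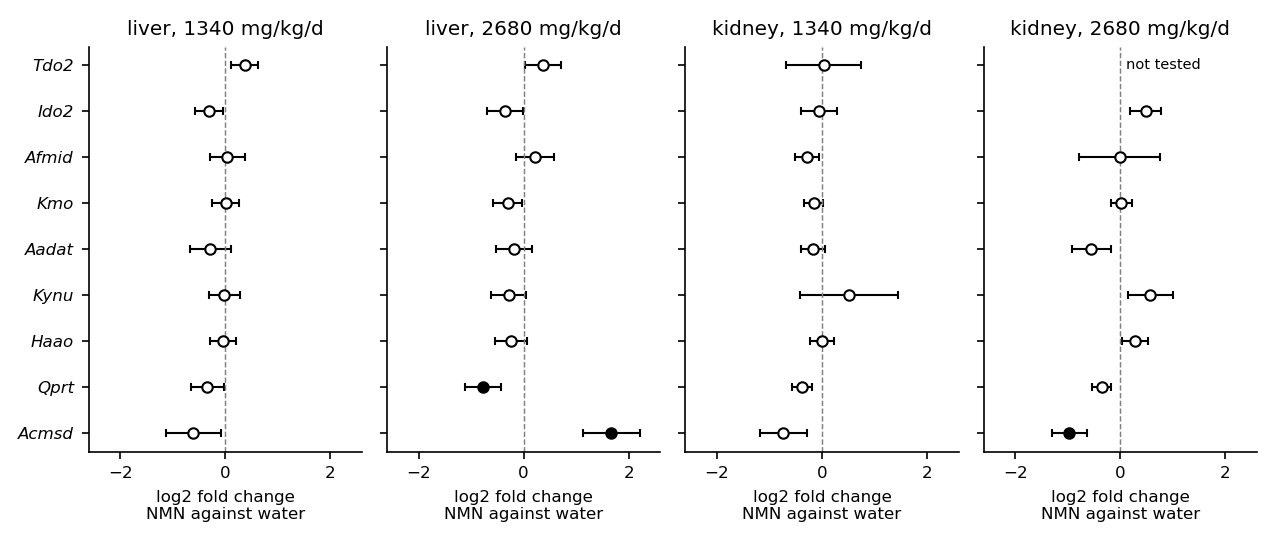
Log2 fold change of NMN against water (points) with 95% confidence intervals (bars) for the 9 genes in each organ and schedule, except Tdo2 in the kidney at 2680 mg/kg/d, which was not tested. Filled points passed an adjusted p of 0.05 over all genes tested, which were Acmsd and Qprt in the liver and Acmsd in the kidney, all at 2680 mg/kg/d.

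In the liver at 2680 mg/kg/d, NMN mice had more Acmsd and less Qprt than water mice, so the transcripts of the 2 enzymes around the fork moved in opposite directions. Unless stated otherwise, values from here on are normalised CPM, that is, CPM after edgeR's TMM scaling within an organ and schedule. Acmsd stood at 33.9, 30.5 and 24.5 in the 3 water mice and at 133.4, 80.2 and 69.0 in the 3 NMN mice. The lowest NMN mouse was above the highest water mouse, and NMN replicate 1 was well above the other two. The rise was 3.18-fold (log2 1.67, 95% confidence interval 1.13 to 2.21, SE 0.24, adjusted p = 0.0051 by edgeR). Qprt stood at 200.2, 218.1 and 186.5 in water mice and at 113.9, 138.7 and 100.5 in NMN mice. Every NMN mouse was below every water mouse, and the log2 change was -0.78 (95% confidence interval -1.12 to -0.44, SE 0.15, adjusted p = 0.017). These were 2 of 9 pathway genes called, where 7.08% of the 12477 genes tested were called in this comparison, 3.05% higher and 4.03% lower. Acmsd also passed a stricter rule, an adjusted p of 0.01 with a fold over 2, which 1.08% of all genes passed. Reads in NMN replicate 1 were 9.24% mitochondrial, against 5.74 to 7.37% in the other 5 livers of the schedule, and reads outside genes were 3.90 to 5.06% in the NMN livers against 3.27 to 3.62% in the water livers. The part of either in these changes was not tested. Without NMN replicate 1, Acmsd was at 1.33 (adjusted p = 0.0022). Qprt was not called without water replicate 1 (adjusted p = 0.053), water replicate 2 (0.084) or NMN replicate 3 (0.078).

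Kidney RNA was looked for in the liver libraries, since Acmsd is a kidney-rich gene. Proximal tubule markers summed to 32.2 CPM in liver NMN replicate 1 and to between 1.21 and 8.58 CPM in the other 5 liver libraries of the schedule. The sum of 32.2 CPM is 0.116% of the kidney level, and the same share of the kidney level of Acmsd is 0.128 CPM. Acmsd was measured at 142.5 CPM in that library. The part of kidney RNA in the change of Acmsd was not tested. Hepatocyte markers were lower in the NMN livers at 2680 mg/kg/d, at 121715 to 134015 CPM against 145051 to 157234 CPM, with Alb the most abundant. All 6 were below 0 on the log2 scale, and Ttr (-0.97, adjusted p = 0.0023) and Serpina1c (-0.58, adjusted p = 0.020) were called. Of 3 pancreas markers, Cela1 was lower in the NMN livers, at 4.29 to 6.64 against 18.8 to 22.6 CPM (log2 -2.17, adjusted p = 0.00073), while Prss2 was at 0 in all 6 libraries and Ctrb1 had at most 1 count. Cela1 was higher still in the kidney, at group means from 36.5 to 76.9 CPM, so it does not by itself mark pancreas here. The part of these markers in the changes of Acmsd and Qprt was not tested.

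Upstream of the fork, no gene passed the test in the liver at 2680 mg/kg/d. Tdo2 stood at 1346, 1714 and 1335 in water mice and at 1608, 1904 and 2192 in NMN mice, which overlapped (log2 0.38, SE 0.16, adjusted p = 0.166). Ido2 stood at 83.5, 82.7 and 90.2 in water mice and at 54.3, 73.4 and 72.5 in NMN mice, without overlap (log2 -0.36, SE 0.16, adjusted p = 0.188). Kmo (log2 -0.30, adjusted p = 0.170) and Kynu (log2 -0.28, adjusted p = 0.279) were likewise below water in every NMN mouse. Groups that do not overlap were common here, at 29.8% of all genes tested (16% lower and 13.8% higher), and 5 of the 9 pathway genes had them, Acmsd higher and the other 4 lower. Haao (-0.23), Aadat (-0.18) and Afmid (0.22) overlapped between the groups.

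In the liver at 1340 mg/kg/d none of the 9 genes passed the test, where 2 of 12449 genes did (0.0161%). At an unadjusted p under 0.05, 4 of the 9 passed, against 6.86% of all genes, and DESeq2 called none of the 9, against 0.326% of all genes. Acmsd stood at 34.8, 16.8, 23.6 and 23.7 in water mice and at 10.1, 17.6, 17.5 and 19.7 in NMN mice, which overlapped (log2 -0.61, SE 0.24, adjusted p = 0.660). Qprt stood at 213.7, 201.1, 173.8 and 202.4 in water mice and at 184.2, 147.6, 171.6 and 119.8 in NMN mice (log2 -0.34, SE 0.15, adjusted p = 0.688). Qprt overlapped through NMN replicate 1 alone, and its lowest value was NMN replicate 4, the library with many reads outside genes. Without that library Qprt was at -0.24 and Acmsd at -0.71, and still none of the 9 was called.

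Tdo2, the entry enzyme, was higher in all 4 NMN livers of this schedule, at 1490, 1813, 1658 and 1595 against 1295, 1281, 1362 and 1131 in water mice (log2 0.37, SE 0.12, adjusted p = 0.504). Ido2 was lower in all 4, at 79.3, 78.9, 71.1 and 66.1 against 84.3, 94.3, 101.3 and 86.2 (log2 -0.31, SE 0.13, adjusted p = 0.670). Of all genes, 3.53% had groups that did not overlap here (1.78% higher and 1.74% lower), and of the 9 these 2 did. The estimates of both were close in size to those at 2680 mg/kg/d, and neither passed the test in either schedule. Afmid (0.03), Kmo (0.01), Kynu (-0.02) and Haao (-0.04) were near 0, with 95% confidence intervals that ran at the widest from -0.31 to 0.37. Aadat was at -0.28 (SE 0.18).

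Whether NMN acted differently under the 2 schedules was tested as a schedule by NMN interaction in the 14 liver libraries. Acmsd was the only one of the 9 that passed, with an NMN effect larger by 2.28 on the log2 scale at 2680 than at 1340 mg/kg/d (95% confidence interval 1.47 to 3.09, SE 0.38, adjusted p = 0.026). In this test 0.0746% of 13412 genes were called. The adjusted p of Acmsd was between 0.057 and 0.153 when 1 of 6 libraries was left out (at 1340 mg/kg/d, water replicate 3 or 4 or NMN replicate 2 or 3, and at 2680 mg/kg/d, water replicate 2 or 3), whereas its estimate stayed between 1.95 and 2.46. Acmsd was also not called with the replicate number as a block, as given in the last section. Qprt differed by -0.42 (SE 0.22, adjusted p = 0.620) and Kmo by -0.30 (SE 0.16, adjusted p = 0.633). The remaining 6 genes lay between -0.26 and 0.19.

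**Figure D3:**
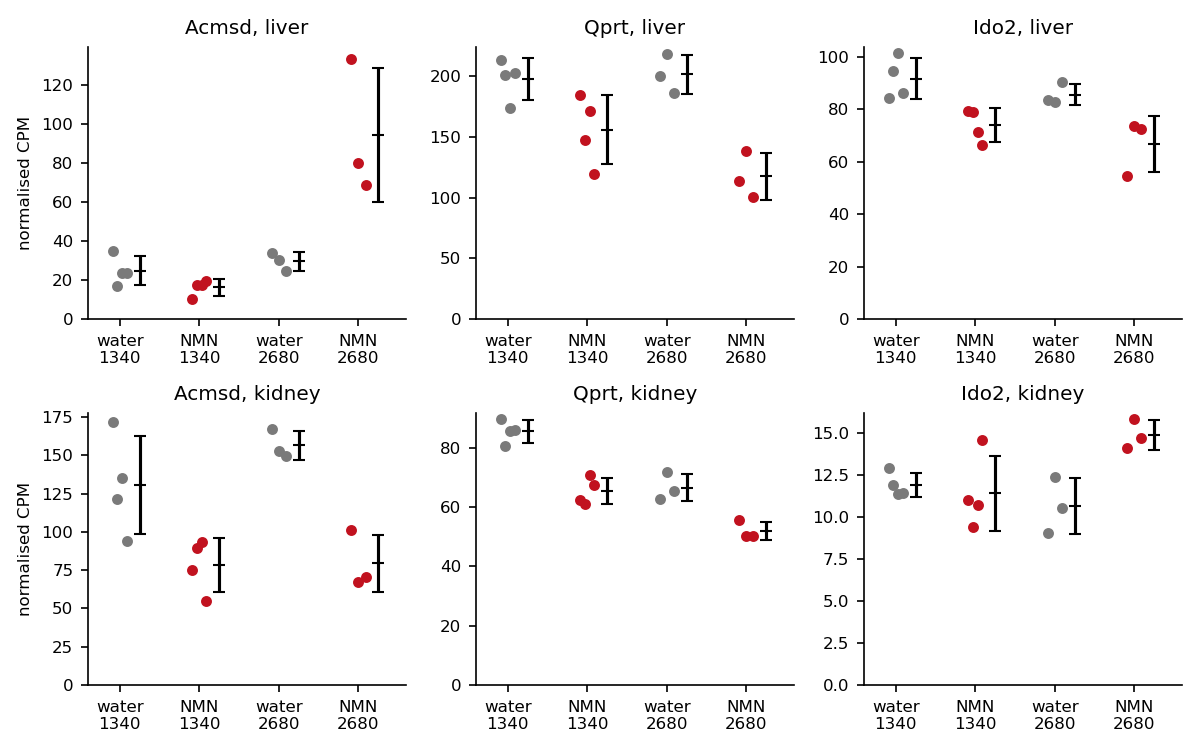
Normalised CPM of Acmsd, Qprt and Ido2 per library (points) with mean ± SD (bars), in liver (top) and kidney (bottom), water in grey and NMN in red. By group mean, Acmsd was higher in the NMN livers at 2680 mg/kg/d (69.0 to 133.4) but lower in the NMN kidneys of both schedules. The mean of Qprt was lower in every NMN group. Of these differences, edgeR called those of Acmsd in both organs and of Qprt in the liver, all at 2680 mg/kg/d.

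The NMN kidneys at 2680 mg/kg/d had less Acmsd than the water kidneys, the opposite of the liver. It stood at 167.2, 152.7 and 149.9 in water mice and at 101.0, 67.4 and 70.6 in NMN mice. The groups did not overlap, and the fall was 1.97-fold (log2 -0.98, 95% confidence interval -1.31 to -0.65, SE 0.15, adjusted p = 0.038). It was the 1 pathway gene called of 8 tested, where 0.4% of 15245 genes were called, 0.282% lower. It did not pass the stricter rule, which 0.0197% of genes passed. The call was lost without water replicate 1, 2 or 3 or NMN replicate 3 (adjusted p from 0.120 to 0.184), with scaling by library totals alone (0.078) and in a fit of all 14 kidney libraries (0.137), while the estimate stayed between -1.19 and -0.87 with 1 library left out.

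The same direction was seen at 1340 mg/kg/d, where Acmsd stood at 171.8, 121.7, 134.9 and 94.2 in water kidneys and at 75.4, 89.6, 93.4 and 55.1 in NMN kidneys. The groups were separated by little, 94.2 against 93.4, and the test was not passed (log2 -0.74, SE 0.20, adjusted p = 0.275). In this comparison 0.12% of 14972 genes were called and none of the 9. At an unadjusted p under 0.05, 3 of the 9 passed, against 8.94% of all genes. DESeq2 called 2 of the 9, Acmsd and Qprt, and 0.601% of all genes. The NMN effect on Acmsd differed between the schedules by -0.24 (95% confidence interval -0.89 to 0.40, adjusted p = 0.999), in an interaction test that called 0.00625% of 15989 genes.

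Qprt was lower in the NMN kidneys of both schedules, without passing the test. It stood at 89.6, 80.6, 85.6 and 85.9 in water mice and at 62.3, 61.1, 70.6 and 67.5 in NMN mice at 1340 mg/kg/d (log2 -0.39, SE 0.09, adjusted p = 0.107). At 2680 mg/kg/d it stood at 62.5, 71.6 and 65.4 in water mice and at 55.5, 50.3 and 50.1 in NMN mice (log2 -0.36, SE 0.08, adjusted p = 0.108). Neither pair of groups overlapped. Groups without overlap made up 5.12% of all genes at 1340 mg/kg/d (2.83% lower and 2.29% higher), where 4 of the 9 had them (Acmsd, Qprt, Afmid and Kmo, all lower), and 17.2% at 2680 mg/kg/d (8.69% lower and 8.47% higher), where 4 of the 8 tested had them (Acmsd, Qprt and Aadat lower, Ido2 higher).

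Markers of the proximal tubule, the segment of the nephron that takes up most of the filtrate, moved with these 2 genes. Their sum was 29361 to 36233 CPM in water kidneys and 21756 to 26949 CPM in NMN kidneys at 1340 mg/kg/d, and 28339 to 30108 against 20845 to 25346 CPM at 2680 mg/kg/d. Kap, an androgen-responsive tubule gene, was the most abundant, with mean levels of 22368 and 16720 CPM at 1340 and 21104 and 15713 CPM at 2680 mg/kg/d. The other 5 markers summed to 9376 to 10920 against 8575 to 9021 CPM, and to 8003 to 8376 against 5844 to 7453 CPM. All 6 markers were below 0 on the log2 scale in both schedules, by at most -0.63 (Slc5a2, the glucose transporter SGLT2) at 1340 and -0.54 (again Slc5a2) at 2680 mg/kg/d, and none was called. Markers of the later nephron (Umod, Slc12a1, Slc12a3, Aqp2 and Scnn1g) were higher at 1340 mg/kg/d, at 4928 to 5514 against 3901 to 4664 CPM, and overlapped at 2680 mg/kg/d, at 3255 to 3717 against 3018 to 3520 CPM. The part of these shifts in the values of Acmsd and Qprt was not tested.

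**Figure D4:**
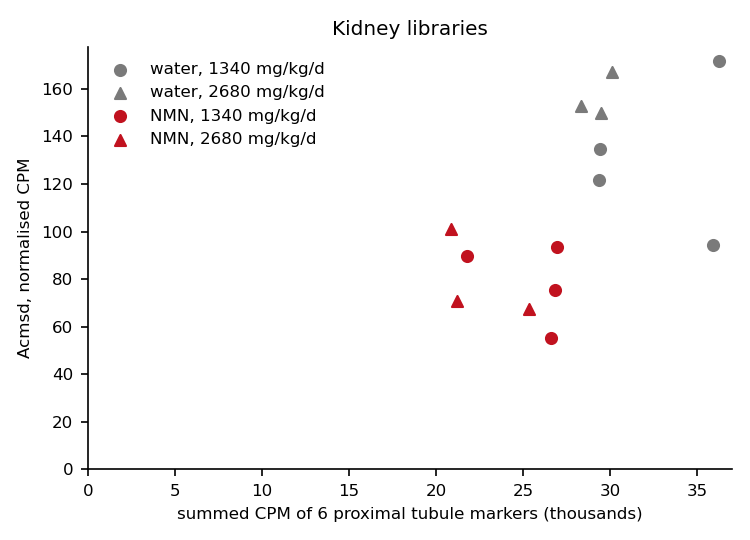
Normalised CPM of Acmsd against the summed CPM of the 6 proximal tubule markers in the 14 kidney libraries, water in grey and NMN in red, circles for 1340 and triangles for 2680 mg/kg/d. The NMN libraries lie lower on both axes than the water libraries of their schedule.

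By edgeR, the other genes of the route showed no call in the kidney, although DESeq2 also called Qprt and Aadat at 2680 mg/kg/d (0.877% of all genes called), and edgeR without a filter on low counts called Haao, Kynu, Qprt, Ido2 and Aadat there (1.91% of all genes called). Aadat, the kidney's most abundant member, stood at 287.5, 354.4 and 302.5 in water mice and at 268.5, 206.0 and 169.4 in NMN mice at 2680 mg/kg/d (log2 -0.55, SE 0.16, adjusted p = 0.253). Ido2 was higher in all 3 NMN kidneys, at 14.1, 15.9 and 14.7 against 9.08, 12.4 and 10.6 (log2 0.48, SE 0.13, adjusted p = 0.177). Kynu overlapped between the groups, at 10.3, 14.7 and 9.91 against 21.6, 13.8 and 16.5 (log2 0.57, SE 0.19, adjusted p = 0.310), as did Haao (log2 0.28, SE 0.11, adjusted p = 0.381). Kmo (0.01) and Afmid (-0.01) were near 0 at this dose, although Afmid spread widely over the NMN mice, at 15.2, 34.1 and 29.5. Tdo2 had too few counts for a test here, 2 to 12 per library.

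At 1340 mg/kg/d Afmid stood at 43.7, 40.1, 43.5 and 43.3 in water kidneys and at 38.9, 30.6, 31.7 and 38.8 in NMN kidneys (log2 -0.28, SE 0.11, adjusted p = 0.425). Kynu was at 0.52 with a wide error (SE 0.40), its NMN values running from 8.00 to 24.6. Kmo (-0.16), Aadat (-0.17), Ido2 (-0.06), Tdo2 (0.03) and Haao (-0.0035) completed the list, and none passed the test. Over all 4 comparisons of NMN with water, which share no libraries but may share mice between the organs, Qprt and Aadat had estimates below 0 in each one. These were 2 of the 8 genes tested in all 4, where 12.4% of 11462 genes were below 0 in all 4.

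Whether NMN acted differently on the 2 organs was tested as an organ by NMN interaction. At 2680 mg/kg/d the NMN effect on Acmsd was higher in the liver than in the kidney by 2.63 on the log2 scale (95% confidence interval 1.95 to 3.30, SE 0.32, adjusted p = 0.00097). The effect on Ido2 was lower in the liver by -0.85 (95% confidence interval -1.28 to -0.42, SE 0.20, adjusted p = 0.040). These were 2 of the 9 genes, where 2.65% of 15811 genes were called. Acmsd was called with any of the 12 libraries left out (adjusted p from 0.00023 to 0.0048), whereas Ido2 was called without liver NMN replicate 1 or 2 or kidney water replicate 2 only, and not with scaling by library totals alone (-0.69, adjusted p = 0.070). Kynu (-0.87, SE 0.25, adjusted p = 0.080), Haao (-0.53, SE 0.20, adjusted p = 0.159) and Qprt (-0.43, SE 0.18, adjusted p = 0.200) did not pass. Kynu was called by DESeq2 (adjusted p = 0.028) and by edgeR without a filter (0.0033), and Qprt without liver NMN replicate 2 (0.039). Acmsd was also the only gene of all those tested that was called higher in the liver and lower in the kidney at this dose, among 9 genes called in both organs. The other 8 were Gsta2 (higher in both), Cyp2d9 and Fam25c (lower in the liver and higher in the kidney) and Aqp4, Pbld2, Prodh2, Sugct and Syne4 (lower in both), and they are named because there were few. That Acmsd stood alone rests on its kidney call, which several alternatives lost. By sign alone, 2665 genes were higher in the liver and lower in the kidney at this dose.

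At 1340 mg/kg/d the interaction for Acmsd was 0.12 (95% confidence interval -0.56 to 0.79, SE 0.32), and edgeR called 0 of 15614 genes, the 9 included. At an unadjusted p under 0.05 there were 904 genes (5.79%) and none of the 9. DESeq2 called none of the 9 either, a count that stands here without the share of all genes it called. Here the estimate for Acmsd was below 0 in both organs.

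**Figure D5:**
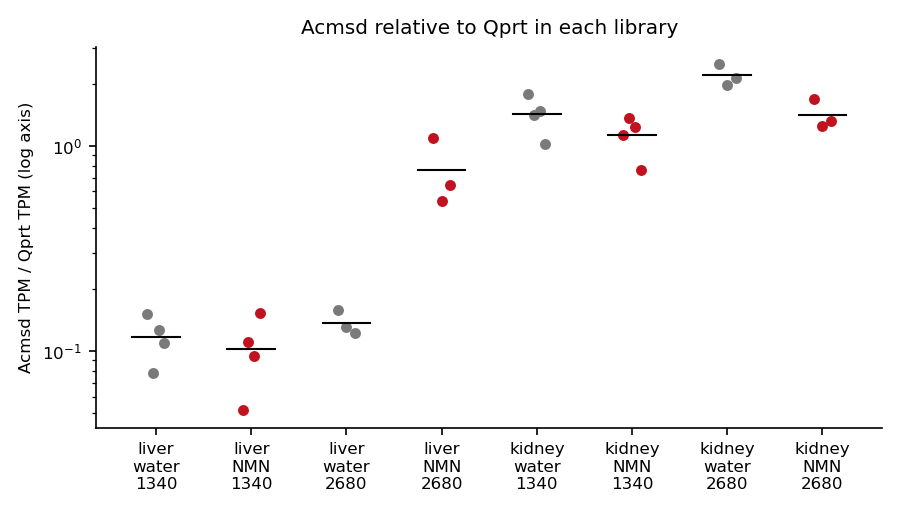
Ratio of Acmsd to Qprt, both in TPM, per library (points) with the group mean (line), on a log axis. The ratio ran from 0.0514 to 0.158 in all liver libraries except those of NMN at 2680 mg/kg/d, where it ran from 0.541 to 1.09, and from 0.762 to 2.50 in the kidney libraries.

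The level of Acmsd relative to Qprt, which sets side by side the transcripts of the 2 exits from the fork, gives the same picture in 1 value per library. In water livers it was 0.117 ± 0.031 (SD, n = 4) at 1340 and 0.137 ± 0.019 (SD, n = 3) at 2680 mg/kg/d. In NMN livers it was 0.103 ± 0.042 at 1340 mg/kg/d, and 1.09, 0.541 and 0.641 in the 3 mice at 2680 mg/kg/d. In the kidney it was 1.42 ± 0.315 in water and 1.12 ± 0.261 in NMN mice at 1340 mg/kg/d, and 2.21 ± 0.260 and 1.42 ± 0.242 at 2680 mg/kg/d. The NMN livers at 2680 mg/kg/d thus came nearer to the kidney values than any other liver group, although none reached the NMN kidneys at that dose (1.25 to 1.70). NMN replicate 1, at 1.09, lay within the kidney ranges of the first schedule (1.02 to 1.79 in water and 0.762 to 1.37 in NMN mice). The ratio is a description and was not tested. Acmsd rose from last of the 9 in water livers to sixth in these NMN livers, at 80.4 ± 30.1 TPM (SD, n = 3), where its range overlapped that of Qprt above it (107.1 ± 14.7 TPM) and of Kynu below it.

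Around the 9 genes, calls among the related lists were made in the liver at 2680 mg/kg/d and in no other comparison of NMN with water. Of the tail of NAD+ synthesis and the other entries to NAD+, 3 of 10 tested genes were called by edgeR, where 7.08% of all genes were. Nadsyn1 (NAD synthetase, the last step of the route from Qprt) stood at 24.4 ± 3.44 in water and 10.9 ± 1.58 normalised CPM in NMN livers (SD, n = 3), a log2 change of -1.16 (SE 0.19, adjusted p = 0.0072). Slc25a51, the mitochondrial NAD+ carrier, rose by 1.15 (SE 0.21, adjusted p = 0.013), and Nampt, the salvage enzyme that makes NMN from nicotinamide, rose from 36.6 ± 6.81 to 60.8 ± 6.99 normalised CPM (SD, n = 3; log2 0.73, adjusted p = 0.030). The 10 genes had a median of -0.04, beside 0.00 for all genes.

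Of the other enzymes of tryptophan and kynurenine breakdown, 1 of 9 tested was called at that dose, near the 7.08% of all genes. Kyat3, a second kynurenine aminotransferase, rose from 150.8 ± 19.6 to 245.4 ± 14.8 normalised CPM (SD, n = 3; log2 0.70, SE 0.14, adjusted p = 0.018), and Acat1 was next at -0.37 (adjusted p = 0.122). Of the genes of tryptophan uptake and other uses, 2 of 10 were called, against 7.08%. Slc16a10 (TAT1), an exporter of aromatic amino acids, rose by 1.12 (SE 0.19, adjusted p = 0.0089), and Inmt, which methylates tryptamine, fell by 1.04 on the log2 scale (SE 0.20, adjusted p = 0.016). Of the transcription factors of liver and tubule, 1 of 9 was called, near the 7.08% of all genes. This was Cebpa, which fell by 0.59 (SE 0.16, adjusted p = 0.049), and Cebpb was at 1.01 (adjusted p = 0.066). None of 5 tested genes of kynurenine sensing was called, with Cyp1a1 (0.63) and Arnt (0.20) at the smallest p. The medians of these 4 lists were -0.20, -0.05, 0.16 and 0.15.

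In the other 3 comparisons none of the listed genes was called, and those with the smallest p in each list, up to 2, were as follows. In the liver at 1340 mg/kg/d they were Hadh (0.27) and Acat1 (0.13), Slc25a51 (0.59) and Nmrk1 (-0.52), Inmt (-0.36) and Slc16a10 (0.54), Ahr (0.43) and Cyp1a2 (-0.18), and Hnf4a (0.68) and Cebpa (-0.49), with adjusted p from 0.118 upwards. Those of the kidney at 1340 mg/kg/d were Acat1 (-0.29) and Hadh (-0.19), Nampt (0.42) and Nmnat3 (-0.34), Inmt (-0.36) and Slc16a10 (-0.21), Ahrr (-0.93) and Cyp1a1 (-0.82), and Nr3c1 (-0.24), with adjusted p from 0.113 upwards. Those of the kidney at 2680 mg/kg/d were Dhtkd1 (-0.26) and Kyat3 (0.24), Slc25a51 (0.32) and Nmnat1 (0.31), Maoa (-0.31) and Wars (0.18), Cyp1b1 (0.46) and Gpr35 (1.05), and Ppara (0.54) and Rxra (0.17), with adjusted p from 0.140 upwards. All values in parentheses are log2 changes. The organ by NMN interaction at 2680 mg/kg/d was passed by Slc16a10 (1.23, adjusted p = 0.017) and Nadsyn1 (-0.98, adjusted p = 0.029) among these lists.

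The genes whose levels ran most like those of the called pathway genes were sought over the 14 libraries of an organ, each centred on the mean of its schedule. In the liver Qprt ran most like Cyb5r3 (Pearson r = 0.97), Gm5617 (0.96) and Tst (0.96), and Acmsd most like Tcp1 (0.88), Snrpa1 (0.87) and Ldah (0.86). In the liver at 2680 mg/kg/d Cyb5r3, Gm5617 and Tst were all called lower with NMN, by -0.78, -1.54 and -0.77 on the log2 scale, while Tcp1, Snrpa1 and Ldah were at 0.42, 0.51 and 0.43 and were not called. In the kidney Acmsd ran most like Tgm2 (0.94), Uap1l1 and Smn1, and of these Uap1l1 was called at 1340 mg/kg/d (-0.62, adjusted p = 0.039). The libraries share treatment and depth, and this centring leaves the NMN effect in place. Genes picked for likeness to a called gene therefore tend to move with it, so these values and calls describe likeness only.

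Among the 9 themselves, the group means were removed before pairs were compared over the 14 libraries of an organ. Of 36 pairs in the liver, Haao and Qprt (0.76), Tdo2 and Afmid (0.73) and Ido2 and Afmid (0.59) ran most alike, and Ido2 and Acmsd (-0.74), Kynu and Qprt (-0.68) and Kynu and Haao (-0.60) least. Of 28 pairs in the kidney, Afmid and Haao (0.70), Kmo and Aadat (0.68) and Qprt and Aadat (0.63) ran most alike, and Kynu and Haao (-0.69), Ido2 and Kynu (-0.60) and Afmid and Kmo (-0.55) least. Kynu and Haao, which follow each other in the route, were thus among the lowest pairs in both organs by this centring. Centred on the schedule means instead, they stood at -0.087 in the liver and -0.37 in the kidney, and Ido2 and Afmid at 0.084 in the liver. Tdo2 was left out of the kidney pairs.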

How the data were processed

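Reads of poly(A) RNA were aligned by the authors with STAR, and HTSeq (strict intersection, unstranded) then gave a count for each gene. The deposited values are whole-number counts per gene, neither normalized nor filtered. The study's methods give versions of HTSeq and DESeq2 but none of STAR, and the build they name could not be matched to the annotation, so coordinates are those of GENCODE M21. Of 54446 identifiers, 53229 matched it in full, 1180 apart from the version, and 37 had no match. In R 4.3.3, edgeR 4.0.16 (filterByExpr, TMM, robust quasi-likelihood test, Benjamini-Hochberg over all tested genes, threshold 0.05) compared groups assigned from the sample labels, within an organ and schedule unless stated. Standard errors are the log2 change over the square root of F. Reads carry no molecular identifiers, so depth bears on counting error only. Nothing states that replicates were separate cages or runs, so p-values measure the spread between these libraries. No pair of libraries within a group agreed within sampling noise.

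All 9 pathway genes are named, with the 2 genes of smallest p in each related list, every gene of those lists called in a comparison that involves NMN, and the 3 genes most like each called member. The value of 1 gene of the lists, and 1 sequence, are not reported here. Members and lists were chosen with earlier results of these data known. Alternatives were DESeq2 1.42.0, its size factors, no filter, a stricter threshold, all libraries of an organ in 1 fit, a replicate block, each library left out, and library totals alone (added after seeing the data). The fits were tested on simulated counts.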

Additional observations from a re-analysis of the deposited data

Results flagged for a closer look

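In 3 of 36 groups of 4 libraries tested, 1 library of a pathway gene lay far from the other 3, and chance alone gives about 1 such group in 20. Afmid was at 40.1 normalised CPM in kidney water replicate 2 at 1340 mg/kg/d, against 43.3 to 43.7 in the others. Kmo was at 284 in liver NMN replicate 4 at 1340 mg/kg/d, against 279 in the others, and at 125 in kidney NMN replicate 3, against 132 to 134.

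Effects of NMN that differed between groups by a test of the difference were those of Acmsd and Ido2. The effect on Acmsd in the liver differed between the schedules by 2.28 on the log2 scale (adjusted p = 0.026 by edgeR). At 2680 mg/kg/d the effect differed between liver and kidney by 2.63 for Acmsd and by -0.85 for Ido2 (adjusted p = 0.00097 and 0.040). With 1 library left out, the schedule difference of Acmsd was called in 8 of 14 fits. The organ difference was called in 12 of 12 fits for Acmsd and in 3 of 12 for Ido2. The call of Ido2 was also lost with library totals alone, and that of Acmsd between the schedules with a replicate block.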

How the results depend on the processing

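Of 89 values of pathway genes followed in 10 comparisons, 84 kept their sign under each alternative that used all libraries. With DESeq2 size factors within edgeR no call changed. In the liver at 2680 mg/kg/d, 1 gene (Acmsd) passed an adjusted p of 0.01 with a fold over 2, and between 1 and 2 were called with 1 library left out. In the kidney at 1340 mg/kg/d, DESeq2 called 2 genes and edgeR without a filter called 2 (Acmsd and Qprt in each), where they called 0.601% and 1.02% of all genes. In the kidney at 2680 mg/kg/d, DESeq2 called 3 (Acmsd, Qprt and Aadat) and edgeR without a filter called 6, where they called 0.877% and 1.91% of all genes. Scaling by library totals alone, a fit of all 14 kidney libraries and the stricter threshold called 0 each, and leaving out 1 library gave between 0 and 3. The interaction of schedule and NMN in the liver gave between 0 and 1 call, and that of organ and NMN at 2680 mg/kg/d between 1 and 3, with 1 call (Acmsd) under library totals alone. The causes of these differences were not tested. Counts of calls in this section that stand without a share of all genes describe the genes called, not the pathway. Values near 0 changed sign, and so did Afmid between the organs at 1340 mg/kg/d, which was called at 0.92 by TMM. Without a filter Haao was at 0.0033 in the kidney at 1340 and Afmid at 0.0088 in the kidney at 2680 mg/kg/d. With library totals alone Haao was at 0.017 in the kidney at 1340 mg/kg/d, Ido2 at 0.093 in the schedule interaction of the liver and Afmid at -0.024 between the organs at 1340 mg/kg/d.

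With 1 library left out, the log2 values that changed sign ran as follows. In the liver at 1340 mg/kg/d, Afmid ran from -0.069 to 0.098, Kmo from -0.040 to 0.074 and Kynu from -0.082 to 0.064. In the kidney at 1340 mg/kg/d, Tdo2 ran from -0.216 to 0.229, Ido2 from -0.199 to 0.025 and Haao from -0.065 to 0.105. In the kidney at 2680 mg/kg/d, Afmid ran from -0.238 to 0.254 and Kmo from -0.080 to 0.095. Between the schedules in the liver, Tdo2 ran from -0.103 to 0.136, Ido2 from -0.112 to 0.093 and Aadat from -0.085 to 0.213, and in the kidney, Tdo2 from -0.968 to 0.071, Kynu from -0.206 to 0.265 and Qprt from -0.019 to 0.084. Between the organs' NMN effects at 1340 mg/kg/d, Haao ran from -0.142 to 0.025, Qprt from -0.070 to 0.155, Acmsd from -0.036 to 0.326 and Aadat from -0.207 to 0.071, and at 2680 mg/kg/d Afmid ran from -0.056 to 0.440.

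Water and NMN libraries share replicate numbers, but nothing says that a number marks a litter, cage or day, and the deviations of same-numbered libraries correlated by 0.037, 0.086, 0.038 and 0.018 on average (liver then kidney, 1340 then 2680 mg/kg/d). A library correlated best with its own number in 3 of 8, 5 of 6, 4 of 8 and 2 of 6 cases. Same-numbered liver and kidney libraries correlated on average by 0.170 (water) and 0.101 (NMN) at 1340 and by 0.132 and 0.016 at 2680 mg/kg/d. The averages for other numbers were -0.066 to -0.0070. They are no separate baseline, because removing the group means ties them to the same-number averages with the opposite sign. Single pairs with other numbers ran from -0.279 to 0.174 in water mice at 1340 mg/kg/d. Nothing says whether same-numbered liver and kidney libraries came from the same mouse. With the number as a replicate block, 1 gene (Acmsd) was called in the kidney at 1340 mg/kg/d. In the schedule interaction of the liver, where the block was the number within a schedule, 0 were called (Acmsd 2.22, adjusted p = 0.083 by edgeR). No other comparison changed its count of calls, and in the kidney at 1340 mg/kg/d Tdo2 was at -0.0054 and Haao at 0.0063. For the organ by NMN interaction the block joined water and NMN libraries of the same number. A pairing of liver and kidney within a mouse was therefore not fitted there. With 3 or 4 libraries per group, small differences may have gone undetected, and the size that could be detected is not given here.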
